A study of Mus musculus with 16 samples.

Results

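The genes described are the Toll-like receptors Tlr1, Tlr2, Tlr3, Tlr4, Tlr6, Tlr7, Tlr8 and Tlr9, the lipopolysaccharide co-receptor Cd14 and the adaptor Myd88. They were chosen by gene symbol, and all 10 of 10 were found among the 54838 gene identifiers counted. RNA was sequenced from macrophages grown from the bone marrow of C57BL/6J mice with the genotype B6.129P2-Apoetm1Unc/J, a deletion of Apoe that all 4 groups carry, the controls included. The marrow cells were grown in L929-cell-conditioned medium, replated on day 7, kept for 24 h without that medium and then treated without serum. The DMSO group received the solvent alone, the TNFα group 50 ng/ml of mouse TNFα for 24 h, and the TMP195+TNFα and TPCA-1+TNFα groups 5 µM TMP195 or 500 nM TPCA-1 for 1 h before the same TNFα. TMP195 inhibits the class IIa histone deacetylases, and TPCA-1 inhibits the IκB kinase IKK2, which activates NF-κB. Each group had 4 libraries. Whether these came from separate mice or cultures, and whether the TNFα group also received DMSO, is not given in the sources used here, and the tests therefore rest on library-to-library variation that could be technical.

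Counted reads per library, in units of 1e6, ranged from 18.6 to 31.6, apart from 7.49 in TPCA-1+TNFα replicate 2. That library had 44.0% unmapped reads, against 4.003% to 7.11% in the others. Apoe had 1 to 11 counts in every library. The macrophage markers were high in each group, led by the lysozyme gene Lyz2 with a DMSO mean of 13458 ± 2799 CPM (SD, n = 4), and Cd163 alone of the 9 markers was under 1 CPM throughout. CPM are counts per 1e6 counted reads of a library. With 3 counts as the limit of detection, 0 counts would allow up to 0.095 to 0.401 CPM (counting error only), far below every value of the 10 genes.

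Toll-like receptors recognise conserved microbial molecules. Tlr2 pairs with Tlr1 or Tlr6 at the cell surface to detect bacterial lipopeptides, and Tlr4 with its partner Ly96 detects lipopolysaccharide that Cd14 delivers to it. Tlr3, Tlr7, Tlr8 and Tlr9 sit in endosomes and detect nucleic acids: double-stranded RNA for Tlr3, single-stranded RNA for Tlr7, and DNA with unmethylated CpG for Tlr9. All of these receptors except Tlr3 signal through Myd88 towards NF-κB, while Tlr3 uses the adaptor Ticam1, and Tlr4 uses both.

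Promoter sequence from RefSeq (GRCm38.p6) was searched over 250 bases before the start for 7 of the 10 genes, with 2 starts each for Tlr1 and Tlr6. Tlr4 and Tlr7 had no promoter sequence in the source used, and Cd14 was left out of the search. The sequences of Tlr2, Tlr9 and Myd88 are shown because these genes changed under TPCA-1. Tlr3 changed as well, but most of its window lies in annotated exons and it is not shown. Tlr8 is shown because it had the largest fall from DMSO with TMP195+TNFα. Parts lying in annotated exons are left out, so Tlr2 is cut to 91 bases and Myd88 to 227. Capitals mark matches to the interferon-stimulated response element core GAAANNGAA, the interferon-γ activated site TTCNNNGAA, the NF-κB consensus or the PU.1 site GAGGAAGT, searched on both strands with definitions settled after a first search.
Tlr2, chr3:83841768-83841858, minus strand: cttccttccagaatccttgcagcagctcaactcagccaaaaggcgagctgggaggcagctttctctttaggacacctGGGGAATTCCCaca
Tlr9, chr9:106222348-106222597, plus strand: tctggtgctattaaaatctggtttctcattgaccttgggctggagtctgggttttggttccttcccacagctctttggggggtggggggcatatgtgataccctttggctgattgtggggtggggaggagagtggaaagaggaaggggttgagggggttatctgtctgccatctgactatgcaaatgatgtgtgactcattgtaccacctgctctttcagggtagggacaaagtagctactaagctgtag
Myd88, chr9:119340042-119340268, minus strand: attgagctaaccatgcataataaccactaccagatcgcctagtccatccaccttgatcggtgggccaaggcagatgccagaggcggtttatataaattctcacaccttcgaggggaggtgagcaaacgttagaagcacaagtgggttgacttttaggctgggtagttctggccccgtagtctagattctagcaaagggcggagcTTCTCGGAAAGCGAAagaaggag
Tlr8, chrX:167264330-167264579, minus strand: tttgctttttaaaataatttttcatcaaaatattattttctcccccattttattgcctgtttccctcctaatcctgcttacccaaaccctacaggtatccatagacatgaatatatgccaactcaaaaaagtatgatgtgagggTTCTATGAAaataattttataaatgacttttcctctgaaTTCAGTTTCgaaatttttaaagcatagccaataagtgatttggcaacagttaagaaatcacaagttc

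The Tlr2 window held overlapping NF-κB matches between 173 and 163 bases before the RefSeq start, on both strands. The Tlr3 window held 1 NF-κB match, 211 to 202 bases before the start, within an annotated exon. In Myd88 an interferon response core 40 to 32 bases before the start overlapped an activated site at 46 to 38 bases. Tlr8 held 1 of each of these motifs, Tlr6 had 2 overlapping response cores in 1 of its windows, and Tlr1 had a PU.1 site in 1 window and an activated site in the other. None of the 4 motifs occurred in the Tlr9 window. Among 32851 promoter windows of the same length, 7.13% held the response core, 7.02% the activated site, 3.90% the NF-κB consensus and 2.44% the PU.1 site. These are matches of letters only, and binding was not measured.

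On GRCm38, Tlr1 (chromosome 5, 64924679 to 64933563) and Tlr6 (chromosome 5, 64952031 to 64960097) lie 18.5 kb apart on the minus strand. Tlr8 (chromosome X, 167242696 to 167264329) and Tlr7 (chromosome X, 167304929 to 167330558) lie 40.6 kb apart, also on the minus strand. The other genes are Tlr2 (chromosome 3, 83836272 to 83841767, minus), Tlr3 (chromosome 8, 45395665 to 45411080, minus), Tlr4 (chromosome 4, 66827584 to 66930284, plus), Tlr9 (chromosome 9, 106222598 to 106226883, plus), Cd14 (chromosome 18, 36725067 to 36726798, minus) and Myd88 (chromosome 9, 119335934 to 119341411, minus). All are protein-coding in GENCODE M21. Tlr1 and Tlr6 are near-identical over part of their length: 15.4% of the 50-base windows of Tlr1 transcripts and 12.3% of those of Tlr6 also occur in transcripts of other genes, so reads from these stretches can be lost or split between them. Such windows made up 7.42% for Myd88, 5.30% for Tlr3, 0.216% for Tlr4 and 0% for the other 5 genes.

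Levels were compared between genes as CPM per kb of exon (mean ± SD, n = 4). In DMSO, Cd14 stood highest at 365 ± 62.1, ahead of Tlr1 at 80.5 ± 9.87. Tlr8 (60.9 ± 11.3), Tlr7 (50.1 ± 9.15), Myd88 (38.9 ± 8.93) and Tlr2 (38.0 ± 3.46) followed. A wider gap separated these from Tlr4 (14.7 ± 2.90), Tlr9 (14.2 ± 3.97), Tlr6 (9.90 ± 1.26) and Tlr3 (7.23 ± 1.45). Neighbours in this order overlapped within 1 SD, except Cd14 against Tlr1 and Tlr2 against Tlr4. Cd14 and Tlr1 kept the first and second place in all 4 groups. Tlr8 moved from the third place in DMSO to the sixth in TNFα and the seventh with either inhibitor, and Tlr3 stayed in the last 2 places throughout. In TNFα-treated cells Tlr8 was at 25.5 ± 5.69 CPM per kb, Tlr9 at 4.13 ± 0.985 and Tlr3 at 3.91 ± 0.695, and Tlr9 and Tlr3 overlapped at the bottom of the order. With TMP195+TNFα, Tlr3 (5.01 ± 1.61) and Tlr9 (3.94 ± 0.624) were again lowest and overlapped. With TPCA-1+TNFα, Tlr9 stood at 10.6 ± 3.22, overlapping Tlr4 at 12.3 ± 5.08, while Tlr3 at 1.42 ± 0.545 lay below every other gene without overlap.

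**Figure D1:**
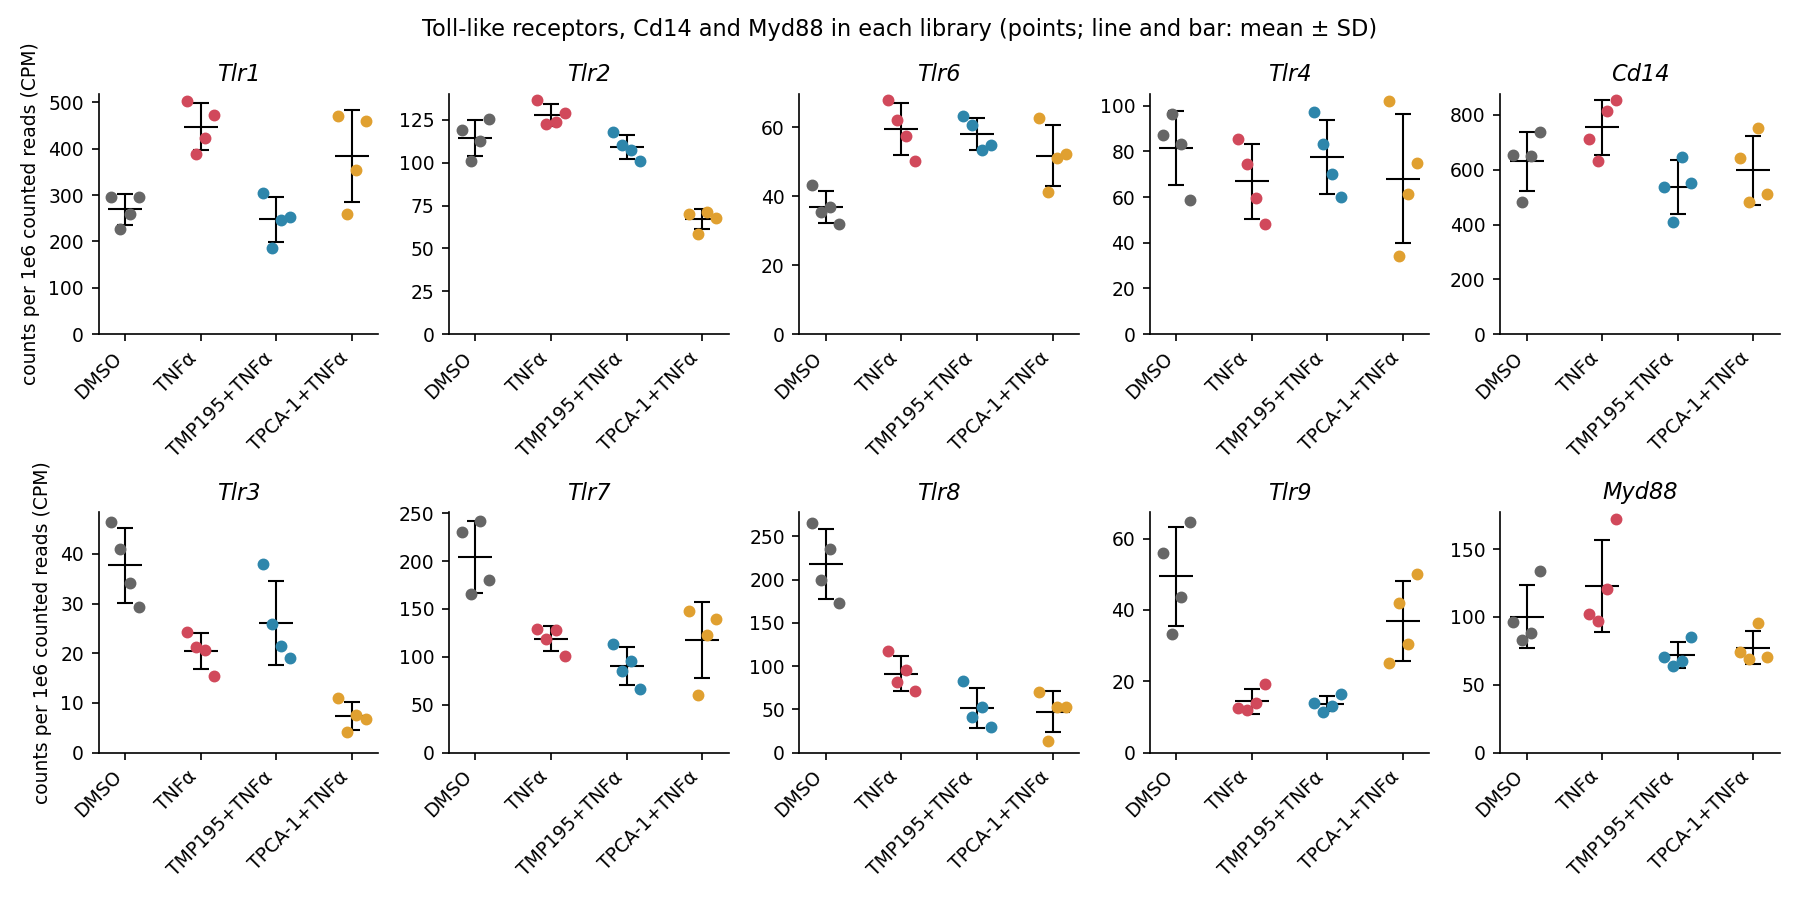
CPM (vertical axes, linear from 0) of the 10 genes in each library of the 4 groups; points run from replicate 1 to 4, and the line and bar give the mean ± SD. The DMSO points of Tlr8, Tlr7, Tlr3 and Tlr9 lie above all TNFα points, those of Tlr1 and Tlr6 below them, and Tlr4 overlaps in every group.

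TNFα was compared with DMSO first. After 24 h of TNFα, all 4 endosomal receptors fell, the lipopeptide partners Tlr1 and Tlr6 rose, and Tlr2, Tlr4, Cd14 and Myd88 did not pass the test. Thus 2 of 10 genes rose and 4 fell, at an adjusted p under 0.05 from edgeR's quasi-likelihood test with Benjamini-Hochberg adjustment over 12612 genes. Over all genes tested, 10.9% were called higher and 12.4% lower. The median log2 fold change was 0.01 for the 10 genes and 0.0018 for all genes.

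Tlr9, the CpG DNA receptor, had the largest change. In DMSO it stood at 56.0, 33.4, 43.5 and 64.8 CPM in replicates 1 to 4, and after TNFα at 12.4, 11.8, 13.9 and 19.3. Every TNFα library was below every DMSO library. The log2 fold change was -1.72 ± 0.23 (SE, adjusted p = 2.71e-05), a 3.28-fold fall. Tlr8, an endosomal receptor whose human counterpart senses single-stranded RNA, measured 266, 199.8, 235 and 173 CPM in DMSO and 118, 81.3, 95.3 and 70.8 CPM in TNFα. These did not overlap either, and the log2 fold change was -1.19 ± 0.36 (SE, adjusted p = 0.0235).

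Tlr7 went from 229.9, 166, 242 and 179.8 CPM to 129, 118, 128 and 101 CPM, a log2 fold change of -0.71 ± 0.23 (SE, adjusted p = 0.032). Tlr3, the double-stranded RNA receptor, went from 46.3, 41.0, 34.1 and 29.2 CPM to 24.2, 21.2, 20.6 and 15.5 CPM, a log2 fold change of -0.82 ± 0.25 (SE, adjusted p = 0.0228). Both genes were lower in every TNFα library than in every DMSO library. The calls of Tlr3, Tlr7 and Tlr8 were lost in some fits with 1 library left out. Those of Tlr9, Tlr1 and Tlr6 held with each of the 16 libraries left out. Tlr3 lost its call without DMSO 1 or 2 or TNFα 3 or 4 (highest adjusted p = 0.0825), Tlr7 without DMSO 1 or 3 or TNFα 2, 3 or 4 (0.102) and Tlr8 without the same 5 libraries (0.0691). The count of called genes was 3 without DMSO 1, TNFα 3 or TNFα 4. Over the 16 omissions the log2 fold change ran from -0.92 to -0.69 for Tlr3. It ran from -0.80 to -0.62 for Tlr7 and from -1.35 to -1.07 for Tlr8. With the replicate number as a block, edgeR's adjusted p was 0.000268 for Tlr3, 0.00499 for Tlr7 and 0.00121 for Tlr8.

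Tlr1 rose from 296, 228, 258 and 296 CPM in DMSO to 503, 389, 424 and 472 CPM after TNFα. Tlr6 rose from 43.2, 35.4, 36.9 and 32.0 CPM to 68.0, 62.2, 57.4 and 50.2 CPM. Neither gene's groups overlapped, and the folds were alike: 0.80 ± 0.18 in log2 for Tlr1 (SE, adjusted p = 0.00347) and 0.76 ± 0.14 for Tlr6 (SE, adjusted p = 0.000499). Their shared partner Tlr2 stood at 119, 101, 113 and 125 CPM in DMSO and 137, 122, 124 and 129 CPM in TNFα. These groups overlapped, and the log2 fold change was 0.23 ± 0.10 (SE, adjusted p = 0.108). Limma called it (adjusted p = 0.0274).

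Cd14 ranged from 482 to 738 CPM in DMSO and from 633 to 856 CPM in TNFα, with a log2 fold change of 0.32 ± 0.17 (SE, adjusted p = 0.211). Tlr2, Cd14 and Myd88 were higher in TNFα in 4 of 4 same-numbered pairs, and Tlr4 was lower in 4 of 4. Same-numbered libraries of these groups deviated together. With the replicate number as a block, edgeR's adjusted p was 0.0353 for Tlr2, 0.0242 for Cd14, 0.0524 for Myd88 and 0.425 for Tlr4. That fit called 8 of the 10 genes and 32% of all genes in either direction. Myd88 measured 96.1, 82.8, 88.4 and 134 CPM in DMSO and 102, 97.0, 120.3 and 172 CPM in TNFα, and its groups overlapped. Its log2 fold change was 0.36 ± 0.18 (SE, adjusted p = 0.177, and 0.041 without DMSO 4). Tlr4 ranged from 58.7 to 96.5 CPM in DMSO and from 48.4 to 85.4 CPM in TNFα; its 95% interval in log2 ran from -0.77 to 0.36.

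**Figure D2:**
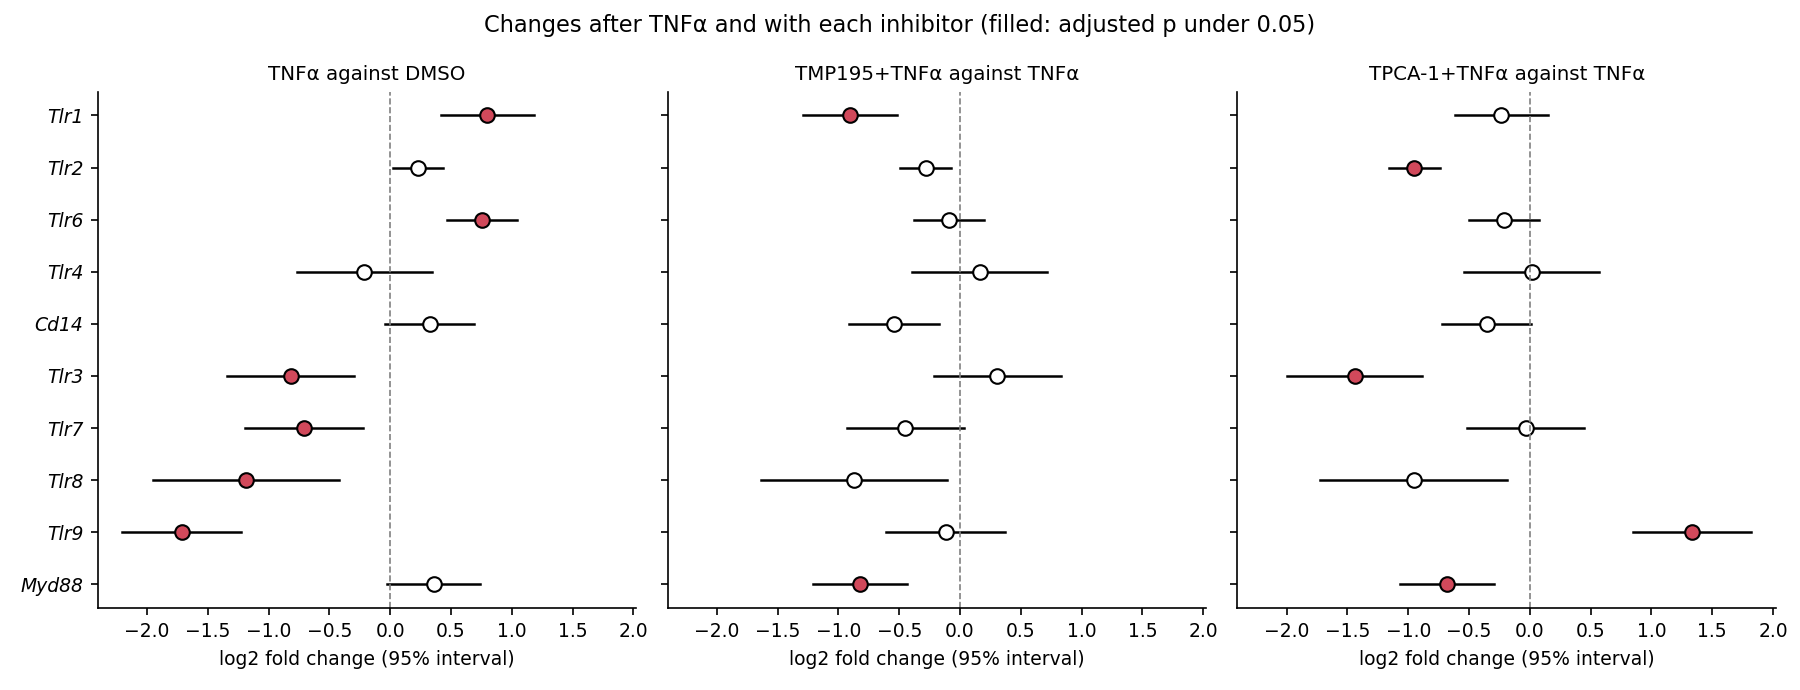
Log2 fold changes (points) with 95% intervals of the 10 genes in 3 comparisons; filled points have an adjusted p under 0.05. After TNFα the 4 endosomal receptors are filled on the left and Tlr1 and Tlr6 on the right; under TMP195 Tlr1 and Myd88 are filled on the left; under TPCA-1 Tlr2, Tlr3 and Myd88 are filled on the left and Tlr9 on the right.

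The effect of the class IIa histone deacetylase inhibitor was read from TMP195+TNFα against TNFα. Tlr1 and Myd88 fell. No gene of the 10 rose in edgeR's test (0 at an unadjusted p under 0.05, and 0 by DESeq2 or limma). The share of all genes called lower was 3%, and the share called higher was 2.95%. The median log2 fold change was -0.37 for the 10 genes and 0.02 for all genes.

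With TMP195, Tlr1 was at 304, 186, 247 and 254 CPM against 503, 389, 424 and 472 CPM with TNFα alone. All 4 libraries lay below the TNFα libraries. Against DMSO (228 to 296 CPM), replicate 1 lay just above, replicate 2 below and the other libraries within the range. The log2 fold change was -0.90 ± 0.18 (SE, adjusted p = 0.00712), a 1.87-fold fall. Myd88 was at 70.7, 64.0, 67.6 and 85.3 CPM, below all TNFα libraries (97.0 to 172 CPM). It fell by 0.82 ± 0.18 in log2 (SE, adjusted p = 0.0122). The calls of Tlr1 and Myd88 held in all 8 other settings and with each library left out.

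Tlr6, the other partner of Tlr2, stood at 63.3, 60.6, 53.4 and 54.8 CPM with TMP195, inside the TNFα range. Its log2 fold change was -0.09 ± 0.14 (SE, adjusted p = 0.836), with a 95% interval from -0.38 to 0.20. Tlr2 was lower with TMP195 in every library, at 118, 110.4, 108 and 101 CPM, by a log2 fold change of -0.28 ± 0.10 (SE, adjusted p = 0.105). DESeq2 (adjusted p = 0.0356) and limma (0.0299) called this fall. Cd14, at 538, 408, 647 and 552 CPM, overlapped TNFα and had a log2 fold change of -0.54 ± 0.17 (SE, adjusted p = 0.0774). It was called by DESeq2 (adjusted p = 0.0302) and by edgeR without the filter on low counts (0.0415). Tlr8, at 82.9, 41.1, 53.0 and 29.9 CPM, overlapped TNFα as well, with a log2 fold change of -0.87 ± 0.36 (SE, adjusted p = 0.189). Limma called it (adjusted p = 0.0193).

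Each of Tlr2, Cd14, Tlr8 and Tlr7 was lower with TMP195 in all 4 same-numbered pairs, as were Tlr1 and Myd88. Tlr3 and Tlr4 were higher in all 4. The share of all genes with such pairs was not counted. With the replicate block the adjusted p was 0.0262 for Tlr2, 0.0022 for Cd14 and 0.0196 for Tlr8, so that 5 of the 10 genes were called lower. That fit called 13.5% of all genes in either direction, and did not call Tlr7 (adjusted p = 0.0849), Tlr3 (0.241) or Tlr4 (0.687). Tlr7 ranged from 66.6 to 114 CPM (log2 fold change -0.45 ± 0.23 (SE), adjusted p = 0.317). For Tlr3, Tlr4 and Tlr9 the groups overlapped, and the log2 fold changes were 0.30 ± 0.25, 0.16 ± 0.26 and -0.12 ± 0.23 (SE).

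The effect of the IKK2 inhibitor was read from TPCA-1+TNFα against TNFα, a comparison that uses the same TNFα libraries. Tlr2, Tlr3 and Myd88 fell and Tlr9 rose. Over all genes 9.72% were called lower and 9.67% higher, that is 1226 and 1220 genes; with upper-quartile factors 1006 were lower and 1701 higher, and the call of each of these 4 genes held. The median log2 fold change was -0.30 for the 10 genes and 0.02 for all genes.

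Tlr9 stood at 25.2, 41.9, 30.4 and 50.1 CPM with TPCA-1, each above the highest TNFα library at 19.3 CPM. It rose by 1.33 ± 0.23 in log2 (SE, adjusted p = 0.000552), a 2.52-fold rise, and by 1.26 (adjusted p = 0.00224) without TPCA-1+TNFα replicate 2. Tlr3 fell further, to 11.0, 4.14, 7.63 and 6.73 CPM, against 15.5 to 24.2 CPM with TNFα alone. Its log2 fold change was -1.44 ± 0.26 (SE, adjusted p = 0.000862), and -1.29 (adjusted p = 0.0027) without replicate 2. Under TPCA-1 these 2 endosomal receptors therefore moved in opposite directions, without overlap between groups in either case.

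Tlr2 was at 70.1, 58.6, 71.4 and 67.7 CPM with TPCA-1, below the 122 to 137 CPM of TNFα and below every DMSO library. The log2 fold change was -0.95 ± 0.10 (SE, adjusted p = 3.54e-06), and -0.90 (adjusted p = 1.18e-05) without replicate 2. Myd88 was at 74.2, 69.2, 95.2 and 70.8 CPM, below the lowest TNFα library at 97.0 CPM. It fell by 0.68 ± 0.18 in log2 (SE, adjusted p = 0.014), and had an adjusted p = 0.0395 without replicate 2. The calls of all 4 genes held with each library left out and in the other settings.

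Tlr1 with TPCA-1 was at 470, 258, 353 and 459 CPM and Tlr6 at 62.6, 41.3, 51.2 and 52.1 CPM. Both overlapped TNFα, with log2 fold changes of -0.24 ± 0.18 (SE, adjusted p = 0.382) and -0.21 ± 0.14 (SE, adjusted p = 0.287). Without replicate 2 these were -0.094 and -0.13. Tlr8 was at 70.4, 13.6, 52.4 and 52.6 CPM, and its highest library was just under the lowest TNFα library at 70.8. The log2 fold change of Tlr8 was -0.96 ± 0.36 (SE, adjusted p = 0.075), -0.67 without replicate 2, and -1.22 (adjusted p = 0.0293) without replicate 1. It passed under limma (0.0257) and without the filter on low counts (0.012). Cd14 had a log2 fold change of -0.35 ± 0.17 (SE, adjusted p = 0.165). Tlr7, at 148, 59.7, 123 and 139 CPM, and Tlr4, at 102, 34.3, 61.2 and 75.0 CPM, spread around the TNFα values. Their 95% intervals in log2 ran from -0.52 to 0.45 and from -0.54 to 0.57. In both, TPCA-1+TNFα replicate 2 was the lowest library, and without it the log2 fold changes were 0.17 for Tlr7 and 0.22 for Tlr4.

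The inhibitors were then compared with each other under TNFα. TMP195 and TPCA-1 are different compounds at different doses. Tlr2 and Tlr3 were higher with TMP195, and Tlr1 and Tlr9 were higher with TPCA-1. Among all genes 13.1% were called higher with TMP195 and 12.6% lower. Tlr3 differed most, with 37.9, 25.8, 21.4 and 19.1 CPM with TMP195 against 4.14 to 11.0 CPM with TPCA-1, a log2 difference of 1.75 ± 0.26 (SE, adjusted p = 0.000114). Tlr9 was at 13.8, 11.3, 13.2 and 16.5 CPM with TMP195 against 25.2 to 50.1 CPM, a log2 difference of -1.45 ± 0.23 (SE, adjusted p = 0.000197). For both genes the groups did not overlap.

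Tlr2 was 0.67 ± 0.10 higher in log2 with TMP195 (SE, adjusted p = 9.89e-05), again without overlap. Tlr1 had a log2 difference of -0.67 ± 0.18 (SE, adjusted p = 0.0122), although TPCA-1+TNFα replicate 2, at 258 CPM, lay within the TMP195 range. Without that library the differences were 1.59 for Tlr3, -1.39 for Tlr9, 0.61 for Tlr2 and -0.82 for Tlr1, all still called. Tlr7 had a log2 difference of -0.41 ± 0.23 (SE, adjusted p = 0.196), and of -0.63 (adjusted p = 0.0174) without TPCA-1+TNFα replicate 2. Myd88, which fell under both compounds, had a log2 difference of -0.14 with a 95% interval from -0.53 to 0.24. For Cd14 that interval ran from -0.55 to 0.18, for Tlr6 from -0.16 to 0.41, for Tlr4 from -0.41 to 0.70 and for Tlr8 from -0.68 to 0.85.

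**Figure D3:**
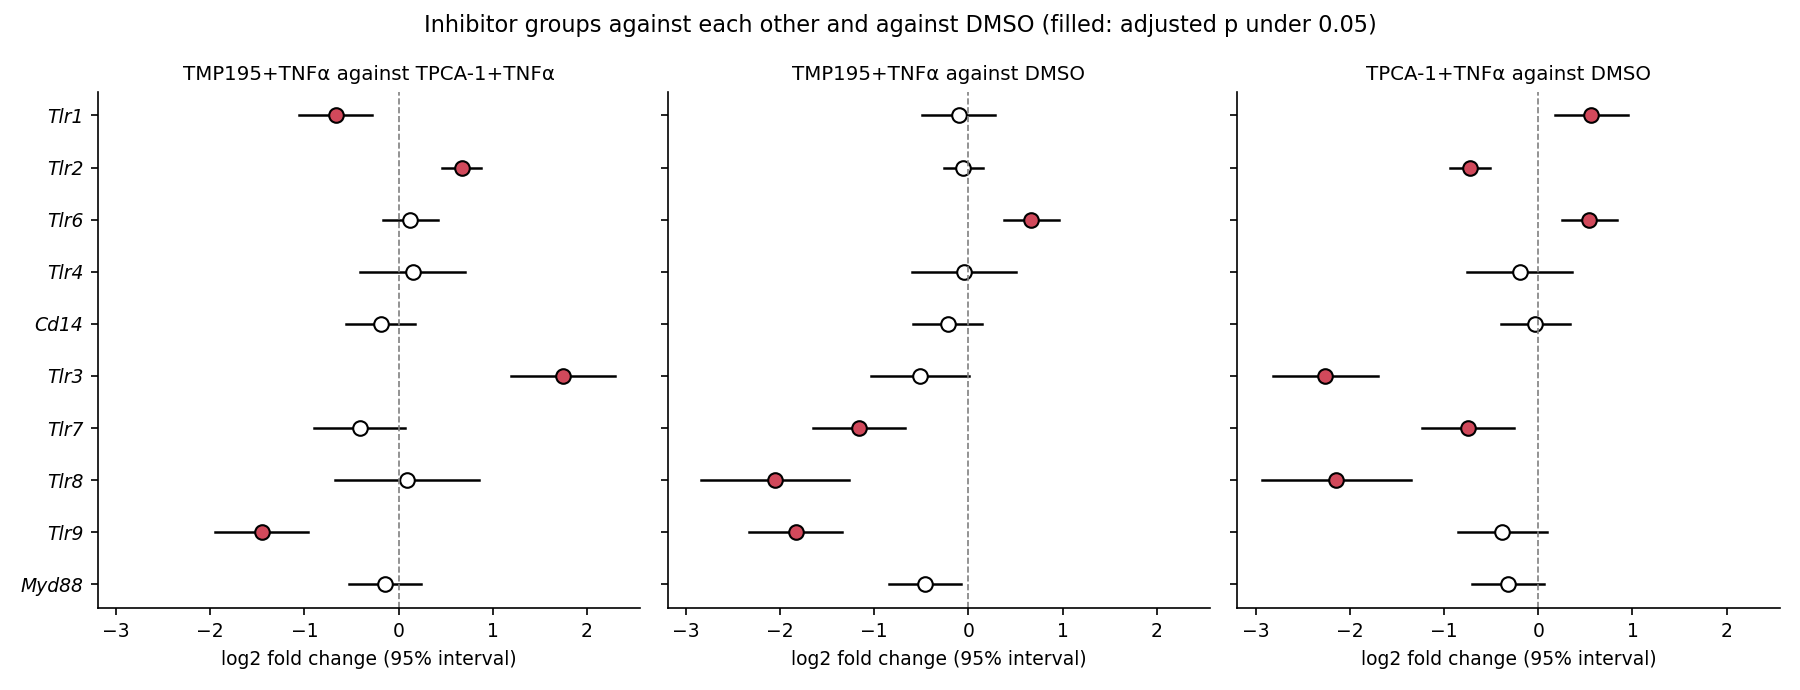
Log2 fold changes (points) with 95% intervals of the 10 genes between the inhibitor groups and of each against DMSO; filled points have an adjusted p under 0.05. Tlr3 and Tlr9 lie farthest apart between the inhibitors, on opposite sides of 0, while Tlr8 lies near 0 between them and about 2 log2 units below DMSO with either.

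Set against DMSO, the inhibitor groups show where the levels ended. With TMP195+TNFα, Tlr6 stayed higher, by 0.67 ± 0.14 in log2 (SE, adjusted p = 0.00125), and 3 endosomal receptors were lower. These were Tlr8 at -2.06 ± 0.37 (SE, adjusted p = 0.000416), Tlr9 at -1.83 ± 0.23 (SE, adjusted p = 1.2e-05) and Tlr7 at -1.16 ± 0.23 (SE, adjusted p = 0.000976). The shares over all genes were 13.6% higher and 13.9% lower. Tlr1 did not pass, with a log2 fold change of -0.10 and a 95% interval from -0.49 to 0.28. Tlr3 had a log2 fold change of -0.51 ± 0.25 (SE, adjusted p = 0.141), and was called without TMP195+TNFα replicate 1 (0.0261) and under limma (0.00588). Myd88 had -0.46 ± 0.18 (SE, adjusted p = 0.0675), and passed in 6 of the 8 other settings, among them limma (adjusted p = 0.0148), upper-quartile factors (0.0451) and DESeq2 (0.0479). It also passed without DMSO 2 or without TNFα 4 (0.0303). With the replicate block the adjusted p was 0.00568 for Tlr3 and 0.0134 for Myd88. The block called 6 of the 10 genes and 36.6% of all genes in either direction.

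With TPCA-1+TNFα against DMSO, Tlr1 and Tlr6 were higher, and Tlr2, Tlr3, Tlr7 and Tlr8 were lower. Over all genes 14.8% were higher and 15.5% lower. Tlr3 had a log2 fold change of -2.26 ± 0.27 (SE, adjusted p = 6.64e-06), a 4.78-fold fall, and Tlr8 one of -2.14 ± 0.37 (SE, adjusted p = 0.000314). Tlr2 was 0.72 ± 0.10 lower (SE, log2; adjusted p = 3.19e-05). Without TPCA-1+TNFα replicate 2 the values were -2.11, -1.86 and -0.67, all still called. Tlr9 did not pass, at -0.38 ± 0.22 (SE, adjusted p = 0.211). Tlr6 was 0.54 ± 0.14 higher (SE, adjusted p = 0.00635). Tlr1 (0.56 ± 0.18 (SE), adjusted p = 0.0263) lost its call without DMSO 2, DMSO 3, TPCA-1+TNFα 1 or TPCA-1+TNFα 4, with a highest adjusted p of 0.0873. Tlr7 (-0.74 ± 0.23 (SE), adjusted p = 0.0205) lost it without DMSO 1 or DMSO 3, with a highest of 0.0658.

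Within each gene neighbourhood the ratio of the paired genes was taken per library from CPM per kb, a description chosen after the values were seen. Tlr1 over Tlr6 ranged from 7.16 to 10.3 in DMSO, from 6.97 to 10.5 in TNFα and from 6.98 to 9.81 in TPCA-1+TNFα. In TMP195+TNFα it ranged from 3.42 to 5.34, below every other library. Tlr8 over Tlr7 ranged from 1.10 to 1.37 in DMSO, from 0.782 to 1.04 in TNFα, from 0.511 to 0.831 in TMP195+TNFα and from 0.260 to 0.540 in TPCA-1+TNFα. The DMSO libraries lay above all others, and the inhibitor groups overlapped slightly with their neighbours in this order.

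**Figure D4:**
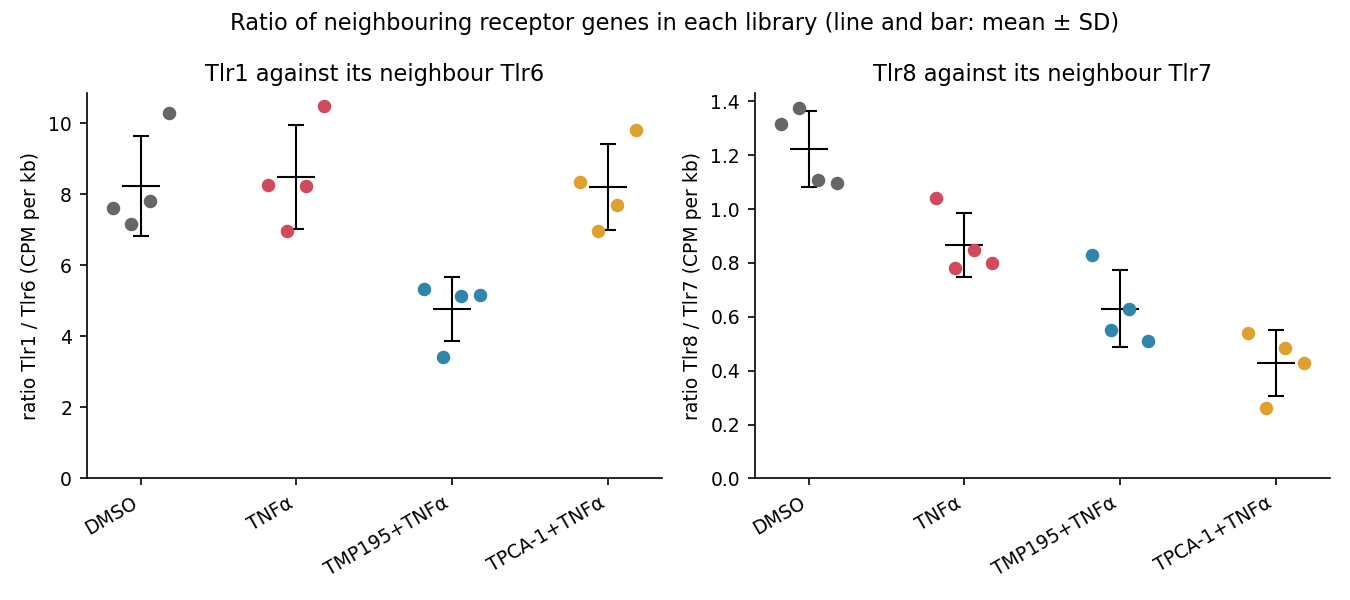
Ratio of CPM per kb (vertical axes, linear from 0) of Tlr1 to Tlr6 and of Tlr8 to Tlr7 in each library; points run from replicate 1 to 4, and the line and bar give the mean ± SD. The TMP195+TNFα libraries alone lie below 6 for Tlr1 over Tlr6, and the Tlr8 to Tlr7 ratio is highest in DMSO and lowest in TPCA-1+TNFα.

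Of 84 other genes of Toll-like receptor signalling, in 8 lists, 76 were expressed highly enough to be tested. After TNFα 17 rose and 12 fell, with TMP195 1 rose and 10 fell, and with TPCA-1 8 rose and 19 fell, the last comparisons being against TNFα. With upper-quartile factors 13 rose and 16 fell after TNFα. With the replicate block the number called was 35 after TNFα and 28 with TMP195, against 29 and 11 without it. In the TMP195 comparison the block called 9 higher and 19 lower, limma 10 and 17, and a fit of only these groups 4 and 13. The TMP195 count was 5 without TNFα 4 or TMP195+TNFα 3, and 6 without TMP195+TNFα 1 or 2. The median log2 fold change over the 76 genes was 0.05 after TNFα, -0.07 with TMP195 and -0.02 with TPCA-1, against 0.0018, 0.015 and 0.022 over all genes. Of all genes tested, 10.9% rose and 12.4% fell after TNFα, 2.95% rose and 3% fell with TMP195, and 9.67% rose and 9.72% fell with TPCA-1. The counts of the single lists that follow are to be read against these shares.

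Of the receptors outside the 10 genes, Tlr5, Tlr11 and Tlr12 had at most 0.266 CPM in any library and were not tested. Tlr13, an endosomal receptor for bacterial ribosomal RNA, was abundant. It stood at 498, 523, 509 and 345 CPM in DMSO and at 336, 339, 317 and 222 CPM in TNFα, a log2 fold change of -0.56 ± 0.19 (SE, adjusted p = 0.0473). That call was lost in 11 of the 16 omissions of a library (highest adjusted p = 0.141, without TNFα 4) and with DESeq2's size factors (0.0538). With TMP195 it was 0.48 ± 0.19 in log2 (SE, adjusted p = 0.17; 0.0167 with the replicate block), and with TPCA-1 -0.42 ± 0.19 (SE, adjusted p = 0.146; 0.0478 without TNFα 4).

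Among 9 tested co-receptors and binding partners, 2 rose and 3 fell after TNFα, none was called with TMP195 and 4 fell with TPCA-1. With TMP195, 2 were lower at an unadjusted p under 0.05 in edgeR, and DESeq2 and limma each called 2. Ly86 and Cd180 form a receptor complex related to Ly96 and Tlr4. Ly86 went from a mean of 185 ± 35.8 CPM (SD, n = 4) in DMSO to 71.5 ± 12.0 in TNFα and 32.9 ± 3.81 in TPCA-1+TNFα. Its log2 fold changes were -1.30 ± 0.18 (SE, adjusted p = 3.3e-05) after TNFα and -1.14 ± 0.18 (SE, adjusted p = 0.000245) with TPCA-1. Cd180 fell by 1.06 ± 0.17 in log2 after TNFα (SE, adjusted p = 0.000137), and Lbp, the lipopolysaccharide-binding protein, by 1.28 ± 0.32 (SE, adjusted p = 0.00635) from a low level of 2.95 ± 0.497 CPM (SD, n = 4). The integrin Itgam fell with TPCA-1 by 0.93 ± 0.22 (SE, adjusted p = 0.00737). With TMP195 Cd36 had a log2 fold change of -0.0025 ± 0.22 (SE, adjusted p = 0.998), and its sign turned with upper-quartile factors and with the replicate block.

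Endosomal trafficking and processing genes, 16 in number and all tested, split 4 up and 4 down after TNFα. The RNase genes Rnaset2a and Rnaset2b, which are near-identical copies and therefore uncertain, rose by 2.66 ± 0.30 and 1.75 ± 0.33 in log2 (SE, adjusted p = 4.01e-06 and 0.000723). Both were low, with TNFα means of 5.63 and 1.39 CPM. The phospholipase Pld4, which degrades nucleic acids in endosomes, fell by 1.24 ± 0.23 (SE, adjusted p = 0.000679). With TMP195 the only calls were falls of Rnaset2a by 1.29 ± 0.27 (SE, adjusted p = 0.00823) and Rnaset2b by 1.12 ± 0.31 (SE, adjusted p = 0.0411). The call of Rnaset2b was lost in 7 of the 16 omissions and without the filter on low counts (adjusted p = 0.0729). With TPCA-1 1 gene rose and 3 fell, among them Dnase2a, a lysosomal DNase, which rose by 0.50 ± 0.12 (SE, adjusted p = 0.0067; 0.36 without TPCA-1+TNFα 2), and the protease gene Ctsb, at -0.54 ± 0.10 (SE, adjusted p = 0.00119).

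The adaptor list held 4 tested genes besides Myd88. None was called after TNFα, where Pik3ap1 had a log2 fold change of -0.27 ± 0.12 (SE, adjusted p = 0.12; 0.0186 with the replicate block; 0.0205 without TNFα 4). It was the only one of the 4 with an unadjusted p under 0.05 in edgeR, and limma called 1 gene and DESeq2 0. With TMP195, 3 of the 4 fell. Tirap, which recruits Myd88 to Tlr2 and Tlr4, fell by 0.66 ± 0.13 in log2 (SE, adjusted p = 0.00581), and Ticam2, which links Tlr4 to Ticam1, by 0.71 ± 0.16 (SE, adjusted p = 0.0133). Both calls held with each library left out. With TPCA-1, Ticam1, the adaptor of Tlr3, rose by 0.69 ± 0.20 (SE, adjusted p = 0.0223), a call lost without TNFα 1, 2 or 3 or TPCA-1+TNFα 2 or 4 (highest adjusted p = 0.0832).

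Of 16 kinases and ubiquitin ligases, 3 rose and 1 fell after TNFα (10.9% and 12.4% over all genes), 1 rose and 2 fell with TMP195, and 2 rose and 4 fell with TPCA-1. Traf3 rose by 0.53 ± 0.09 in log2 after TNFα (SE, adjusted p = 0.000394) and the kinase gene Map3k7 by 0.30 ± 0.09 (SE, adjusted p = 0.0147; 0.0551 with upper-quartile factors and 0.102 without the filter on low counts), while Peli2, a ubiquitin ligase acting on Irak proteins, fell by 1.19 ± 0.18 (SE, adjusted p = 8.51e-05). Irak2 and Map3k8, kinases downstream of Myd88, fell with TMP195 by 0.44 ± 0.11 and 0.46 ± 0.11 (SE, adjusted p = 0.0195 and 0.0224). The Irak2 call was lost without TNFα 4 or TMP195+TNFα 2 or 3, and that of Map3k8 without TNFα 1 or 2 or TMP195+TNFα 3 or 4. With TPCA-1 Map3k8 fell by 0.55 ± 0.11 (SE, adjusted p = 0.00234) and Tbk1, a kinase that activates interferon regulatory factors, by 0.51 ± 0.11 (SE, adjusted p = 0.0032).

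Of 12 transcription factors, 2 rose after TNFα, none was called with TMP195, and 4 rose and 2 fell with TPCA-1. With TMP195, 1 was higher and 3 lower at an unadjusted p under 0.05 in edgeR; DESeq2 called 2 lower, and limma 1 higher and 2 lower. Nfkb2 rose by 1.18 ± 0.21 in log2 after TNFα (SE, adjusted p = 0.000338) and Relb by 0.67 ± 0.23 (SE, adjusted p = 0.0483); the Relb call was lost in 10 of the 16 omissions and with upper-quartile factors (adjusted p = 0.0715). Irf7, which drives interferon genes downstream of Tlr7 and Tlr9, stood at 222 ± 30.9 CPM in TNFα and 5.52 ± 0.968 CPM in TPCA-1+TNFα (SD, n = 4). That was a log2 fold change of -5.38 ± 0.25 (SE, adjusted p = 2.98e-10). Atf3 rose with TPCA-1 by 1.17 ± 0.19 (SE, adjusted p = 0.000247), and with TMP195 had a log2 fold change of 0.54 ± 0.18 (SE, adjusted p = 0.0963; 0.0062 with the replicate block).

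Of 15 tested negative regulators, 5 rose and 3 fell after TNFα, 3 fell with TMP195 and 4 fell with TPCA-1. Nfkbia, the NF-κB inhibitor, rose by 1.61 ± 0.20 in log2 after TNFα (SE, adjusted p = 1.14e-05) and the ubiquitin-editing gene Tnfaip3 by 1.09 ± 0.13 (SE, adjusted p = 5.84e-06), while the inhibitory receptor gene Cd300lf fell by 2.08 ± 0.28 (SE, adjusted p = 2.96e-05). Irak3, which restrains Myd88 signalling, stood at 546 ± 45.1 CPM in TNFα, 326 ± 35.6 CPM in TMP195+TNFα and 228 ± 31.8 CPM in TPCA-1+TNFα (SD, n = 4). Its log2 fold changes were -0.80 ± 0.14 (SE, adjusted p = 0.00246) and -1.28 ± 0.14 (SE, adjusted p = 4.63e-06). Socs1 fell with TMP195 by 1.01 ± 0.25 (SE, adjusted p = 0.0244; highest adjusted p = 0.0959, without TNFα 4), and Tnfaip3 fell with TPCA-1 by 1.13 ± 0.13 (SE, adjusted p = 7.29e-06).

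Interleukin-1 family receptors also signal through Myd88, and 3 of 5 were tested. The interleukin-36 receptor Il1rl2 rose after TNFα by 1.32 ± 0.27 in log2 (SE, adjusted p = 0.00123) and fell with TPCA-1 by 1.19 ± 0.27 (SE, adjusted p = 0.00486). The shared subunit Il1rap fell with TPCA-1 by 0.71 ± 0.17 (SE, adjusted p = 0.0056). With TMP195 no receptor of this list passed in edgeR, although 2 were higher at an unadjusted p under 0.05 and DESeq2 and limma each called 1. Il1rap had a log2 fold change of -0.17 ± 0.16 (SE, adjusted p = 0.67).

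**Figure D5:**
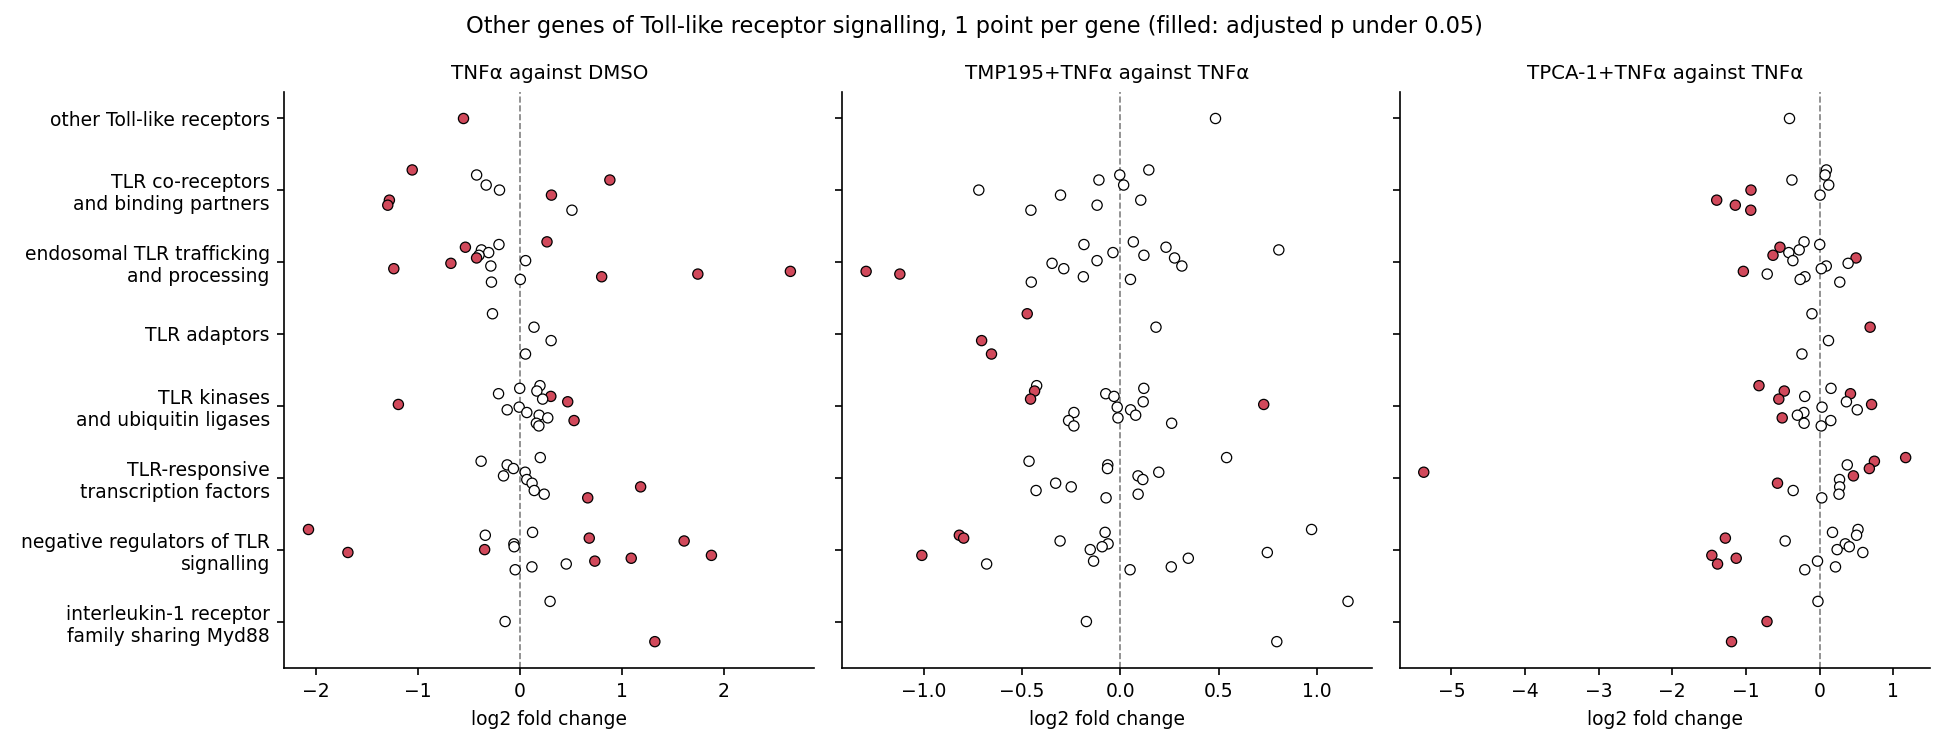
Log2 fold changes of the 76 tested genes by list in 3 comparisons, 1 point per gene, with filled points at an adjusted p under 0.05; the horizontal scales differ between panels. Filled points lie on both sides of 0 after TNFα, mostly on the left with TMP195 and with TPCA-1, and Irf7 is the point at -5.38.

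In bulk RNA, fewer cells of a type and less RNA per cell cannot be told apart, so markers of other cell types that carry these receptors were measured. Tlr9 is also a gene of B cells and plasmacytoid dendritic cells. Of 7 B cell markers, Cd79a, Ms4a1, Ighd, Pax5 and Ebf1 were under 1 CPM in every library. The summed level of the list was 63.7 to 114 CPM in DMSO, 26.7 to 51.9 in TNFα, 16.7 to 26.9 in TMP195+TNFα and 53.3 to 111 in TPCA-1+TNFα. It came almost wholly from Ighm and Cd79b, which moved with Tlr9 after TNFα and with TPCA-1. Cd79b had log2 fold changes of -0.83 ± 0.19 and 1.23 ± 0.20 (SE, adjusted p = 0.00407 and 0.000247) in these comparisons, and Ighm -1.22 ± 0.30 and 0.94 ± 0.30 (SE, adjusted p = 0.00535 and 0.0347). The second Ighm call was lost without TNFα 1, 2 or 3 or TPCA-1+TNFα 2 or 4, and when only these groups were fitted (adjusted p = 0.0622). The part of B cells in the Tlr9 result was not tested. With TMP195 Ighm fell by 1.11 ± 0.30 (SE, adjusted p = 0.0387; highest adjusted p = 0.142, without TNFα 4), whereas Tlr9 had a log2 fold change of -0.12 ± 0.23 (SE).

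Of 7 plasmacytoid dendritic cell markers, Siglech, Klk1, Ccr9, Ly6d and Pacsin1 were under 1 CPM in every library. The sum was 54.8 to 70.6 CPM in DMSO, 39.2 to 47.0 in TNFα, 33.7 to 40.6 in TMP195+TNFα and 29.0 to 37.3 in TPCA-1+TNFα, and it was led by Tcf4, at 62.5 ± 7.41 CPM in DMSO (SD, n = 4). Tcf4, like Tlr8, was lower than in DMSO in the other 3 groups. With TPCA-1 against TNFα, Tcf4 fell by 0.41 ± 0.11 in log2 (SE, edgeR adjusted p = 0.0196). That call was lost without TPCA-1+TNFα 4 (0.0517). Tlr9 rose by 1.33 ± 0.23 in log2 (SE) in this comparison. Cox6a2, the other marker above 1 CPM, named after its values were seen, stood at 2.06 ± 0.202 CPM in TNFα and 3.60 ± 1.31 CPM in TMP195+TNFα (SD, n = 4), where every library was higher (adjusted p = 0.191). The part of these cells in the Tlr8 and Tlr9 results was not tested. Conventional dendritic cell markers summed to 2.21 to 11.9 CPM over the 16 libraries, with Itgax highest and Flt3, Xcr1, Clec9a and Cd209a under 1 CPM. The 9 neutrophil markers summed to 40.6 to 79.5 CPM in DMSO, 127.6 to 157 in TNFα, 84.8 to 115 in TMP195+TNFα and 51.7 to 78.7 in TPCA-1+TNFα. Csf3r had the highest mean, at 54.8 ± 18.1 CPM in DMSO and 78.3 ± 23.4 CPM in TNFα (SD, n = 4; adjusted p = 0.0879). Most of the difference in the sum after TNFα came from S100a8, a calcium-binding protein gene named after its values were seen, at 1.60 ± 0.784 CPM in DMSO and 64.4 ± 17.0 CPM in TNFα (log2 fold change 5.38 ± 0.40 (SE), adjusted p = 6.83e-08). Ly6g, Mpo, Elane, Camp, Ltf, Ngp and S100a9 were under 1 CPM. The sum of the macrophage list was 16461 to 25274 CPM in DMSO, 17224 to 24860 in TNFα, 12601 to 17337 in TMP195+TNFα and 12298 to 20186 in TPCA-1+TNFα. Its part in the lower levels of the inhibitor groups was not tested. T and NK cell markers, led by Nkg7, and mast cell markers, led by Kit, reached at most 1.07 and 0.381 CPM in sum. Fibroblast and endothelial markers, led by Kdr, reached at most 1.47 CPM.

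Tlr8 and Tlr3 had the widest range of group means among the 10 genes. The genes whose log2 CPM tracked Tlr8 most closely over the 16 libraries, out of 8569 with a mean of at least 5 CPM, were Rgs18 (Pearson r = 0.966), Sh3kbp1 (0.962) and Ptpro (0.960). Rgs18, a regulator of G-protein signalling, had group means of 137, 57.4, 32.7 and 32.0 CPM in DMSO, TNFα, TMP195+TNFα and TPCA-1+TNFα, in the same order as Tlr8. For Tlr3 they were the chemokine gene Ccl8 (r = 0.985), Etnk1 (0.976) and the aminopeptidase gene Erap1 (0.968). Erap1 had group means of 121, 105, 114 and 47.8 CPM, lowest with TPCA-1 as Tlr3 was. These correlations share the same libraries and groups and are given as a description.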

How the data were processed

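Total RNA was isolated with Trizol, per the labels' protocols, and whether it was poly(A)-selected is not given in the sources used here. The deposited files hold whole-number read counts per gene for each of 16 libraries, in the layout of STAR's gene counts. Per the submitters' processing notes, STAR 2.6.1d and the builds mm10 and GRCm38 were used. Of the count columns, the one for the strand opposite to the read was used, since the other strand held 3.19% to 3.72% of the reads assigned on either. Lines naming no gene (4 per library, 21.0% to 23.6% of its reads and 53.4% in TPCA-1+TNFα 2) were left out, and 54809 of 54838 identifiers matched GENCODE M21, which gave symbols and exon lengths.

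For the tests, filterByExpr left 12612 genes, TMM factors scaled the libraries, and 2-sided quasi-likelihood tests were run in edgeR 4.0.16 under R 4.3.3, with 1 mean per group over all 16 libraries (12 residual degrees of freedom) and Benjamini-Hochberg adjustment over all genes tested. A gene is called at an adjusted p under 0.05. CPM were computed from the library totals without TMM factors. The code was tested on simulated counts. Alternatives were 2 other normalizations, no filter, DESeq2 1.42.0, limma 3.58.1 (voom with sample quality weights), counts on both strands, fits of 2 groups, a replicate block and leaving out each library.

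Same-numbered libraries of DMSO, TNFα and TMP195+TNFα deviated together (every correlation of deviations from group means over 0.1), so for these the numbers pair the samples, from the data and not from the labels. For TPCA-1+TNFα they did not in every pair. Its replicate 2, the shallowest library, had 0.020 with DMSO 2, -0.043 with TNFα 2 and -0.0066 with TMP195+TNFα 2. Its replicate 4 had 0.086 with TMP195+TNFα 4. Against TNFα its replicates 1, 3 and 4 had 0.51, 0.25 and 0.15. Over all 24 same-numbered pairs the correlation ranged from -0.04 to 0.68. No replicates were identical.

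The 10 genes, the lists and the tests were chosen with earlier results of these data known. The named pathway genes are, per list, up to 3 called genes with the smallest adjusted p after TNFα, up to 2 with each inhibitor, and the most abundant gene where none was called. From each marker list the most abundant gene is named. Cd79b was named after its values were seen, and 1 marker of the lists is not reported here. Likeness was Pearson's r of log2(CPM + 0.5) with the 2 genes of widest range of group means, naming 3 genes each among those with a mean of at least 5 CPM and a symbol other than a clone or predicted gene.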

Additional observations from a re-analysis of the deposited data

How the results depend on the processing

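The log2 fold changes of the 10 genes in 6 comparisons kept their direction and call in 451 of 480 values under the 8 alternatives other than leaving out a library; 24 gained a call, 0 lost one and 5 turned sign. With 1 library left out, 917 of 960 kept both, 20 lost and 6 gained a call, and 17 turned sign. The same settings were applied to named pathway and marker genes and to counts over all genes after seeing the data; for the named genes 397 of 416 and 769 of 832 values kept both.

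With TMP195 against TNFα the called genes of the 10 numbered 4 under DESeq2, 4 under limma and 5 with the replicate block; those of the pathway lists 19, 27 and 28, and 17 with only the 2 groups fitted; and those over all genes 1209, 1778 and 1699 against 750. For TPCA-1 against TNFα, where the numbers do not pair all samples, the block called 7 of the 10 genes, adding Tlr1 (adjusted p = 0.0378), Tlr8 (0.00676) and Cd14 (0.0161), and 3835 genes in all, and fitting only the 2 groups 1551, against 4 and 2446. Besides the calls given beside the results, the block changed no call of the 10 genes in the 3 paired comparisons. For 15 of 16 libraries the best correlation was with a library of their own number.

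Leaving out 1 library gave 3 to 7 called genes of the 10 after TNFα. With TMP195 it gave 5 to 15 pathway genes and 446 to 1041 genes in all (496 without TNFα 1, 485 without TNFα 4, 446 without TMP195+TNFα 3). In TPCA-1+TNFα against DMSO it gave 24 to 39 pathway genes against 37, the lowest without DMSO 1.

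All signs that turned belonged to changes that had not passed. For TPCA-1 against TNFα, Tlr4 was at -0.012 without a filter, -0.0029 under DESeq2 and -0.0093 under limma, and Tlr7 at 0.032 with upper-quartile factors. Cd36 with TMP195 was at 0.021 with those factors and 0.0033 with the replicate block, and Cd14 with TPCA-1 against DMSO at 0.020 under limma. With 1 library left out, the log2 range with TMP195 against TNFα was -0.21 to 0.041 for Tlr9 and -0.16 to 0.13 for Cd36. With TPCA-1 against TNFα it was -0.26 to 0.22 for Tlr4 and -0.18 to 0.17 for Tlr7. Between the inhibitors it was -0.064 to 0.42 for Tlr4 and -0.25 to 0.35 for Tlr8. Against DMSO it was -0.23 to 0.02 for Tlr1 and -0.20 to 0.063 for Tlr4 with TMP195, and -0.47 to 0.011 for Tlr4 and -0.17 to 0.054 for Cd14 with TPCA-1. The cause was not tested. The lowest count of the 10 genes was 31, for Tlr3 in TPCA-1+TNFα 2, the shallowest library.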
